A study of Mus musculus with 9 samples.

Results

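Alad and 8 further genes that make or break down haem were followed in mouse brain: Alas1, Uros, Urod, Cpox, Ppox, Fech, Hmox1 and Hmox2. Every probe set annotated to one of these genes was taken, which gave 20 of 45037 probe sets and 9 of 18193 genes with a probe set of their own. Alad was chosen by its measured log2 level, which was higher in BALB/cJ, so its differences between BALB/cJ and the other strains are a description without a test. The other 8 genes, with 18 probe sets, were chosen for their place in the pathway, and the question was whether Alad stood alone among them.

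The samples were brain hemispheres, cerebellum not included, of untreated adult male mice of 3 inbred strains: BALB/cJ, B6By.C.132.54 and C57BL/6ByJ. By its name, B6By.C.132.54 is a C57BL/6By line with a contribution from BALB/c, whose extent the labels do not state. All mice were 11 ± 1 weeks old, and no label gives a transgene or a treatment. RNA of 10 hemispheres was pooled for each of the 9 Affymetrix arrays, 3 for every strain, and the study drew on 90 mice, 30 from each. An array thus averages over mice, and the number of arrays limits the precision.

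Haem is built along a chain of enzymes that starts and ends in mitochondria and passes through the cytosol. Alas1 makes aminolevulinate and is the regulated entry step outside red cells. Alad, the aminolevulinate dehydratase and a zinc enzyme inhibited by lead, joins aminolevulinate molecules into porphobilinogen. Uros and Urod turn the linear tetrapyrrole into coproporphyrinogen, Cpox and Ppox oxidise it, and Fech inserts the iron. The haem oxygenases Hmox1, which is inducible, and Hmox2, which is constitutive and abundant in brain, open the ring and release biliverdin, carbon monoxide and iron. The mouse Alad locus was first described through differences in enzyme activity between inbred strains, and some strains carry it in several copies; copy number was not measured here.

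Alad lies on chromosome 4. The 250 bases before an annotated start are shown for Alad and for Hdhd3, the next gene on the array in chromosome order, because Hdhd3 was the one neighbour of Alad whose difference between BALB/cJ and C57BL/6ByJ passed the test. Both sequences are from RefSeq (build GRCm38.p6, a C57BL/6J assembly), so they do not show what BALB/cJ carries there. Both are on the minus strand, written 5′ to 3′, at chr4:62520064-62520313 for Alad and chr4:62502201-62502450 for Hdhd3. Capitals mark the motifs searched on both strands, namely the GC box GGGCGG, the CCAAT box, the E-box CACGTG, the TATA motif TATAAA and the GATA motif AGATAA.
Alad: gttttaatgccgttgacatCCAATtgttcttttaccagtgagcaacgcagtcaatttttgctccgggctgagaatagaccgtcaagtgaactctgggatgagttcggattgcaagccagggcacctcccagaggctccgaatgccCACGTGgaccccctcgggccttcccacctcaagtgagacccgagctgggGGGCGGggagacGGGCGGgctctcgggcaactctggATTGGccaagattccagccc
Hdhd3: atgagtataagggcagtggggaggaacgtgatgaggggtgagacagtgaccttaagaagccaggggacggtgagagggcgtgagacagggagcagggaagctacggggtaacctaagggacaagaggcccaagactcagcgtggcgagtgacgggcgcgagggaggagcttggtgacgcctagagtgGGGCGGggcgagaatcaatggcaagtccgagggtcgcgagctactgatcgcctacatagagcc
The Alad window held 2 GC boxes, 2 CCAAT boxes and 1 E-box with 58.4% G and C, and the Hdhd3 window held 1 GC box with 60.8% G and C. A second annotated start of Alad, whose window overlaps the one shown, had 6 GC boxes, 1 CCAAT box and 1 E-box before it with 70.4% G and C. Among 32851 windows of this length, 32.7% held a GC box, 33.8% a CCAAT box and 6.02% an E-box. The table had windows for 7 of the 9 genes, with 12 annotated starts. Of these 12, 6 held a GC box, 4 a CCAAT box and 4 an E-box, while 0 held TATAAA or AGATAA. Some windows of Alas1 and Hmox2 overlap as those of Alad do, so the starts are not independent. Each Alad window counts for the GC box, the CCAAT box and the E-box. Over all windows TATAAA was found in 12.4% and AGATAA in 9.99%. These matches describe the letters and no binding was measured.

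All levels are log2 signal intensities without a pseudocount, where a difference of 1 is a doubling. The median of all probe sets was 3.97, and probe sets near or below it lie where specific signal and background are hard to separate, as the deposited table has no detection calls. Array medians lay between 15.49 and 15.99 intensity units, and the mean correlation of an array with its own strain was between 0.988 and 0.995, lowest for B6By.C.132.54 replicate 3. The tissue was checked with marker genes. All 5 neuronal, 5 astrocytic and 5 endothelial markers, the 4 measured oligodendrocyte markers and 4 of 5 microglial markers lay above the median of all probe sets. Of 5 cerebellar markers only Cbln1, a gene also expressed outside the cerebellum, lay above it.

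The brighter Alad probe set, 1424877_a_at, read 7.74, 8.03 and 7.92 in BALB/cJ, against 6.22, 6.59 and 6.36 in B6By.C.132.54 and 6.14, 6.59 and 6.27 in C57BL/6ByJ. Every BALB/cJ array was above every array of the other strains, and the arrays of B6By.C.132.54 and C57BL/6ByJ overlapped. The means were 7.90 ± 0.151 in BALB/cJ, 6.39 ± 0.187 in B6By.C.132.54 and 6.33 ± 0.233 in C57BL/6ByJ (SD, n = 3 each). The difference of BALB/cJ from C57BL/6ByJ was 1.56 on the log2 scale, or 2.96-fold, with a 95% interval of 1.26 to 1.87. That of BALB/cJ from B6By.C.132.54 was 1.51, or 2.84-fold (1.20 to 1.81). Alad was chosen for its rise in BALB/cJ. The intervals for BALB/cJ, in both Alad probe sets, are not corrected for that choice and are no test. Array pairs of one replicate number gave 1.60, 1.44 and 1.65 for BALB/cJ minus C57BL/6ByJ and 1.52, 1.44 and 1.56 for BALB/cJ minus B6By.C.132.54.

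The dimmer Alad probe set, 1457306_at, also had BALB/cJ on top, with a smaller gap. It read 5.01, 4.98 and 4.95 in BALB/cJ, against 4.47, 4.47 and 4.63 in B6By.C.132.54 and 4.55, 4.68 and 4.52 in C57BL/6ByJ. The BALB/cJ arrays again lay above all others. The difference was 0.40 (1.32-fold, 95% interval 0.21 to 0.58) from C57BL/6ByJ and 0.46 (1.37-fold, 0.27 to 0.65) from B6By.C.132.54. The mean over both probe sets therefore gave 0.98 for either comparison, so the size of the Alad difference depends on the probe set read.

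Only the comparison of B6By.C.132.54 with C57BL/6ByJ was not used to choose Alad. There the brighter probe set differed by 0.06 (95% interval -0.25 to 0.36; limma, Benjamini-Hochberg adjusted p = 0.962) and the dimmer one by -0.06 (-0.25 to 0.13; adjusted p = 0.936). Both intervals leave out a difference of the size seen in BALB/cJ, although for the dimmer probe set that size is itself small. Across all probe sets, this comparison called 0 of 45037 (0%) in limma after adjustment, with 1751 at an unadjusted p under 0.05 (3.89%).

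**Figure D1:**
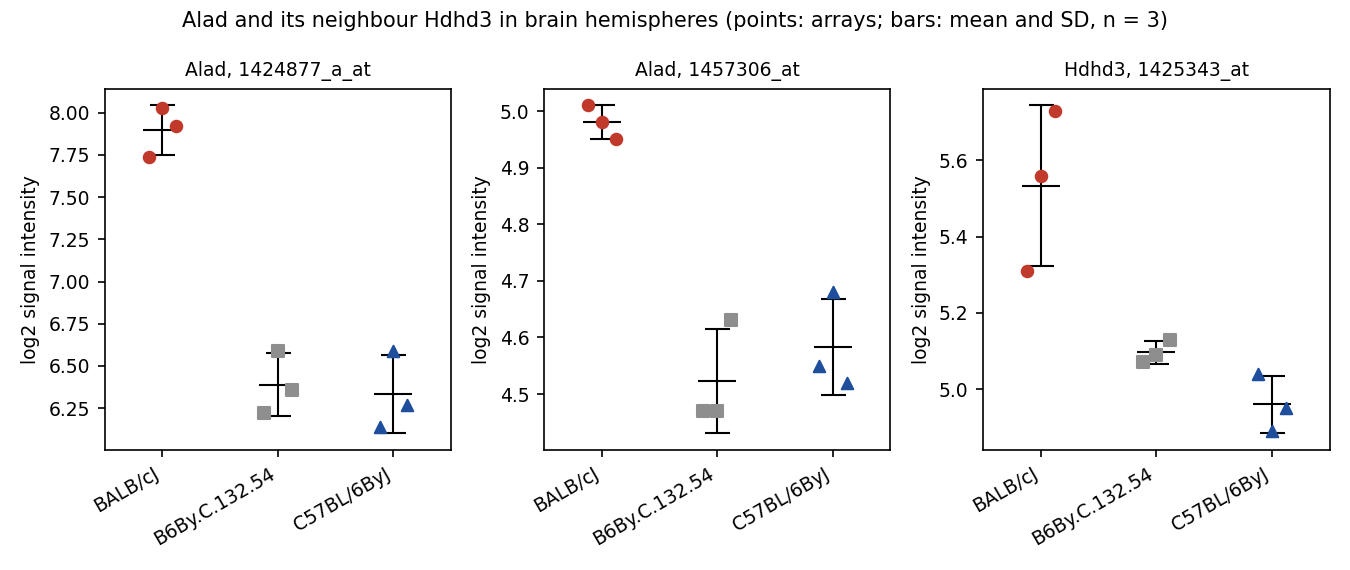
Log2 signal intensity of both Alad probe sets and of the neighbouring gene Hdhd3 in BALB/cJ, B6By.C.132.54 and C57BL/6ByJ; each point is an array, and bars give the mean and SD (n = 3), with an axis range of its own in each panel. The 3 BALB/cJ arrays lie above all others in each panel, between 7.74 and 8.03 for Alad 1424877_a_at.

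Bulk tissue cannot tell apart more cells that express a gene and more RNA per cell. Of 13 markers of red cells and their precursors, 7 had a probe set of their own, and 2 of these (Hbb-b2 and Alas2) lay above the median of all probe sets. The summed intensity of the 7 was 86.9 to 91.7 in BALB/cJ, 80.7 to 96.7 in B6By.C.132.54 and 81.4 to 84.4 in C57BL/6ByJ. Of the 7, 0 passed the limma test in BALB/cJ against C57BL/6ByJ. In that comparison 1.32% of all genes passed, the share to set beside each marker count here, so 0 of 7 does not show that the strains were alike. The summed endothelial markers were 280.6 to 334.3 in BALB/cJ, 332.0 to 387.9 in B6By.C.132.54 and 373.3 to 399.3 in C57BL/6ByJ, with 1 of 5 called between BALB/cJ and C57BL/6ByJ. The summed ranges of both lists were thus apart between BALB/cJ and C57BL/6ByJ, the red cell sum upwards and the endothelial sum downwards. Most red cell markers were dim, and globin probe sets with several genes were not used, so the red cell sum cannot show red cell content. In it, Alas2 differed by 0.21 and Hbb-b2 by 0.14, while Slc4a1 (-0.03) and Hba-a1 (-0.002) went the other way. The part of both lists in the Alad difference was not tested. Summed neuronal, astrocytic, oligodendrocyte, microglial and choroid plexus markers overlapped between BALB/cJ and C57BL/6ByJ, but 1 of 5 neuronal and 1 of 5 astrocytic markers passed on their own. Slc17a7, the vesicular glutamate transporter of excitatory neurons, fell by 1.45 on the log2 scale in BALB/cJ against C57BL/6ByJ (limma, adjusted p = 0.00272) and by 1.24 against B6By.C.132.54 (adjusted p = 0.0088). Gfap, an intermediate filament of astrocytes, rose by 0.92 over C57BL/6ByJ (adjusted p = 0.00393) and by 0.71 over B6By.C.132.54 (adjusted p = 0.0238). The other astrocytic markers did not follow Gfap against C57BL/6ByJ: Aqp4 differed by -0.10, Slc1a3 by -0.05, Gja1 by -0.07 and Aldh1l1 by 0.14. The other neuronal markers differed little there: Snap25 by -0.05, Syt1 by -0.12, Rbfox3 by -0.007 and Nefl by -0.08. The part of Slc17a7 and Gfap in the Alad difference was not tested either.

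The rest of the pathway showed no such step between BALB/cJ and C57BL/6ByJ. Of the 18 probe sets of the other 8 genes, 0 passed the limma test at an adjusted p under 0.05, against 1.43% of all probe sets (644 of 45037). At an unadjusted p under 0.05 there were also 0 of 18, against 7.58% of all probe sets, and with the replicate number as a block in the fit 0 of 18 passed, against 2.12%. Without the block the lowest adjusted p was 0.732, for Ppox. Of the 18 differences, 9 were positive and 9 negative, between -0.21 and 0.22, with a median of -0.01 against 0.02 over all probe sets. Their 95% intervals reached from -0.59 to 0.60 at the widest, so none included the 1.56 of the brighter Alad probe set, while differences of the 0.40 seen with the dimmer one lay inside 3 of them. In 0 of the 18 did the arrays of BALB/cJ and C57BL/6ByJ separate, against 12.6% of all probe sets.

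**Figure D2:**
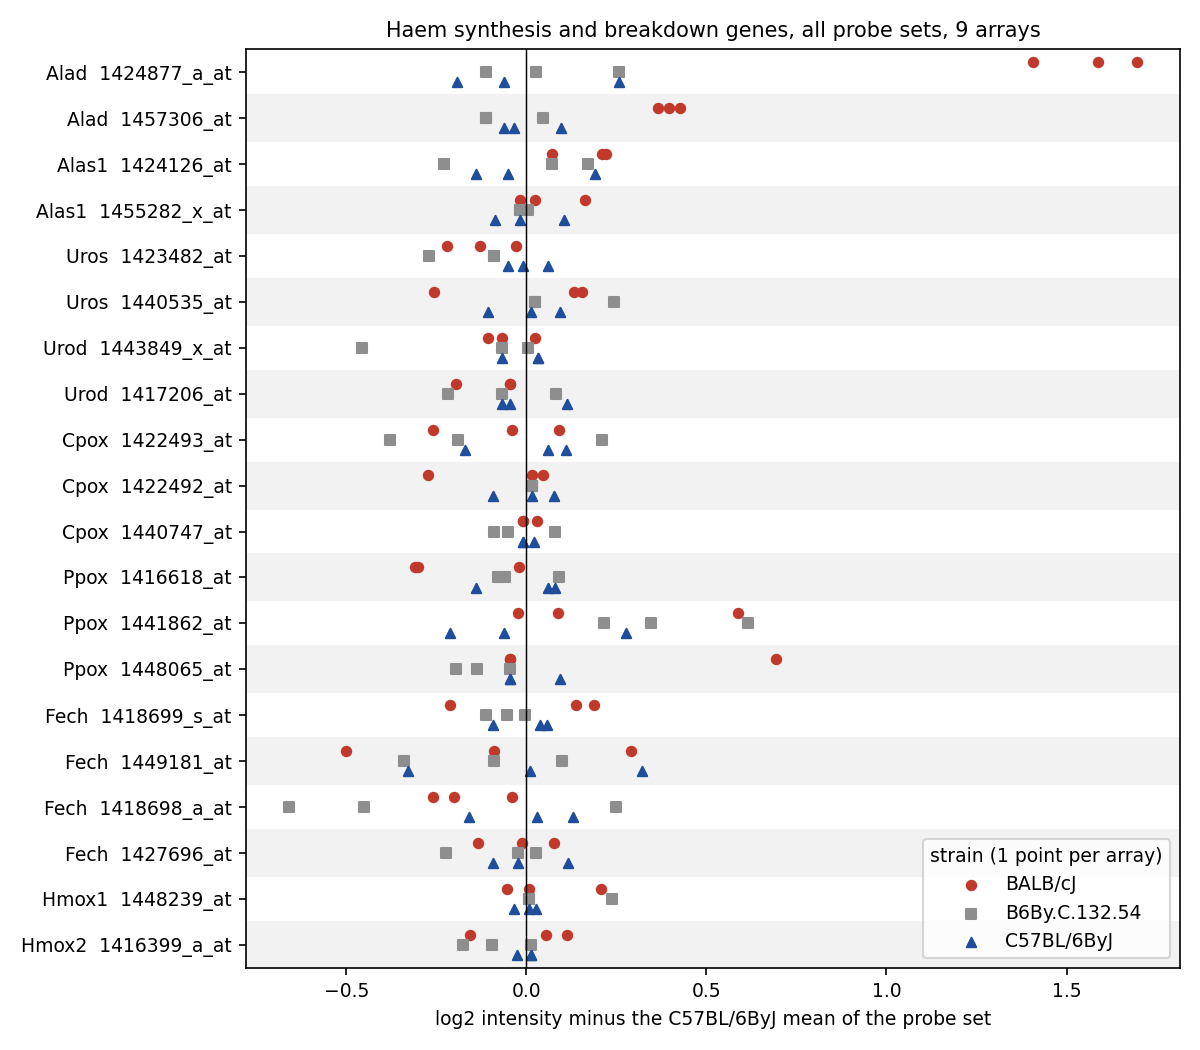
Log2 intensity of all 20 haem pathway probe sets on the 9 arrays, each minus the C57BL/6ByJ mean of the same probe set; red circles are BALB/cJ, grey squares B6By.C.132.54 and blue triangles C57BL/6ByJ. Only in the 2 Alad probe sets do the 3 BALB/cJ points stand clear of all others; in the other 18 they mix with those of C57BL/6ByJ.

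Alas1, the enzyme that supplies the substrate of Alad, did not pass in any comparison. Its brighter probe set, 1424126_at, read 7.52, 7.66 and 7.67 in BALB/cJ, against 7.22, 7.62 and 7.52 in B6By.C.132.54 and 7.31, 7.64 and 7.40 in C57BL/6ByJ. All strains overlapped. The difference of BALB/cJ from C57BL/6ByJ was 0.16 (95% interval -0.11 to 0.44; limma, adjusted p = 0.897), and from B6By.C.132.54 it was 0.17 (-0.10 to 0.44; adjusted p = 0.854). The second probe set, 1455282_x_at, differed by 0.06 from C57BL/6ByJ (-0.13 to 0.25). Alas2, the erythroid form of the same enzyme, was measured on chromosome X at 4.61, 4.70 and 4.73 in BALB/cJ, against 4.24, 4.22 and 4.53 in B6By.C.132.54 and 4.34, 4.69 and 4.39 in C57BL/6ByJ. BALB/cJ and B6By.C.132.54 did not overlap in Alas2, but the difference of 0.35 (0.09 to 0.61) did not pass (adjusted p = 0.372).

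The cytosolic enzymes downstream of Alad did not pass in any comparison. Uros 1423482_at read 6.99, 7.18 and 7.08 in BALB/cJ, against 6.94, 7.12 and 7.12 in B6By.C.132.54 and 7.16, 7.20 and 7.27 in C57BL/6ByJ. BALB/cJ overlapped C57BL/6ByJ (difference -0.13, 95% interval -0.33 to 0.07; adjusted p = 0.877), whereas the B6By.C.132.54 arrays lay just below all C57BL/6ByJ arrays (difference -0.15, adjusted p = 0.915). That was the one probe set of 18 whose arrays separated in the comparison of B6By.C.132.54 with C57BL/6ByJ, where 6.62% of all probe sets did. The second Uros probe set, 1440535_at, had a mean under the median level of the array and differed by 0.01 between BALB/cJ and C57BL/6ByJ (-0.26 to 0.28). Urod, which lies on chromosome 4 as Alad does, had 2 bright probe sets. Urod 1443849_x_at measured 6.94 ± 0.0651 in BALB/cJ, 6.81 ± 0.245 in B6By.C.132.54 and 6.99 ± 0.0550 in C57BL/6ByJ (SD, n = 3 each), a difference of -0.05 between BALB/cJ and C57BL/6ByJ (-0.31 to 0.20). Urod 1417206_at differed by -0.10 (-0.32 to 0.13). The wide spread of 1443849_x_at in B6By.C.132.54 came from replicate 3, at 6.53 against 6.92 and 6.99 in the other arrays of that strain.

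The mitochondrial oxidases were dimmer than the brightest probe sets of Uros and Urod. Their standard errors varied by probe set, from 0.0791 to 0.176. Cpox 1422493_at read 4.44, 4.79 and 4.66 in BALB/cJ, 4.51, 4.91 and 4.32 in B6By.C.132.54 and 4.53, 4.81 and 4.76 in C57BL/6ByJ, a difference of -0.07 between BALB/cJ and C57BL/6ByJ (-0.40 to 0.26). The other 2 Cpox probe sets, 1422492_at and 1440747_at, had means under the median level of the array and differed by -0.07 and 0.003. The 3 Ppox probe sets did not point the same way. The brightest, 1416618_at, read 4.76, 4.75 and 5.04 in BALB/cJ, against 5.15, 4.98 and 5.0 in B6By.C.132.54 and 4.92, 5.12 and 5.14 in C57BL/6ByJ. Of the 18 probe sets it had the lowest p between BALB/cJ and C57BL/6ByJ (0.0725, adjusted p = 0.732), with a difference of -0.21 (-0.45 to 0.02). Ppox 1441862_at read 4.08, 4.58 and 3.97 in BALB/cJ, 4.34, 4.21 and 4.61 in B6By.C.132.54 and 4.27, 3.93 and 3.78 in C57BL/6ByJ. Its BALB/cJ minus C57BL/6ByJ difference was 0.22 (-0.17 to 0.60). In B6By.C.132.54 against C57BL/6ByJ it gave 0.39 (0.00 to 0.78; unadjusted p = 0.0493, adjusted p = 0.915), the single member of 18 with an unadjusted p under 0.05 there. The remaining Ppox probe set, 1448065_at, had a mean under that level and differed by 0.20 (-0.17 to 0.57).

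Fech, the last step, had 4 probe sets and no strain difference that passed. The brightest, 1418699_s_at, read 7.56, 7.96 and 7.91 in BALB/cJ, 7.72, 7.77 and 7.66 in B6By.C.132.54 and 7.68, 7.83 and 7.81 in C57BL/6ByJ. BALB/cJ minus C57BL/6ByJ was 0.04 (95% interval -0.21 to 0.28; adjusted p = 0.988). A dimmer one, 1449181_at, differed more between replicate numbers than between strains. It read 5.62, 5.24 and 4.83 in BALB/cJ, 5.43, 5.24 and 4.99 in B6By.C.132.54 and 5.65, 5.34 and 5.0 in C57BL/6ByJ for replicate numbers 1, 2 and 3. The 3 arrays of one number thus lay together, number 1 highest and number 3 lowest in every strain, and the strain difference was -0.10 (-0.56 to 0.36). The interval of Fech 1418698_a_at was nearly as wide, at -0.59 to 0.26, and the fourth probe set, 1427696_at, lay below the median of all and differed by -0.02.

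The haem oxygenases passed in no comparison, and their arrays overlapped between strains. Hmox2, on chromosome 16, read 7.59, 7.80 and 7.86 in BALB/cJ, 7.65, 7.76 and 7.57 in B6By.C.132.54 and 7.76, 7.76 and 7.72 in C57BL/6ByJ. The difference of BALB/cJ from C57BL/6ByJ was 0.002 (-0.21 to 0.21; adjusted p = 0.999). Hmox1, a stress-induced gene on chromosome 8, lay just above the median of all probe sets, at 4.21, 4.01 and 3.95 in BALB/cJ, 4.24, 4.01 and 4.01 in B6By.C.132.54 and 4.03, 3.97 and 4.01 in C57BL/6ByJ. Its difference was 0.06 (-0.16 to 0.27; adjusted p = 0.981).

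**Figure D3:**
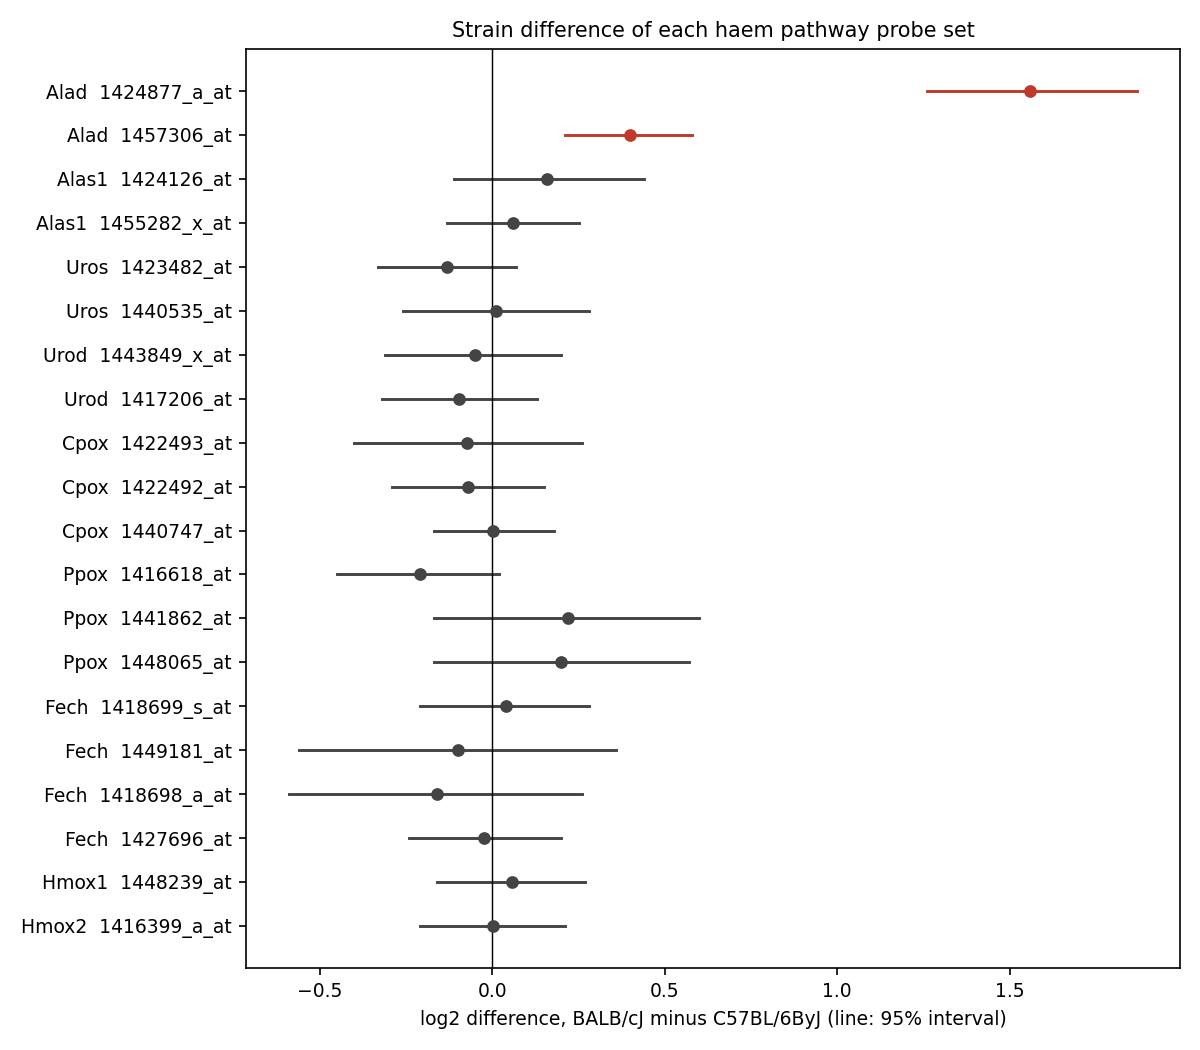
Log2 difference of BALB/cJ minus C57BL/6ByJ for each haem pathway probe set, with the 95% interval of the limma fit as a line; Alad is red. The brighter Alad probe set stands at 1.56, while the 18 probe sets of the other genes lie between -0.21 and 0.22 with intervals that all include 0.

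The other comparisons gave the same count for these 8 genes. Between BALB/cJ and B6By.C.132.54, 0 of 18 probe sets passed in limma, against 1.28% of all probe sets, with 0 at an unadjusted p under 0.05 (7.5% of all) and a lowest adjusted p of 0.747 (Ppox 1448065_at, difference 0.33). In 0 of 18 did the arrays separate (9.51% of all), and with the replicate block 0 of 18 passed (1.85% of all). Of the 18, 12 were higher and 6 lower in BALB/cJ, with a median of 0.04 against 0.02 over all probe sets. Between B6By.C.132.54 and C57BL/6ByJ, 0 of 18 passed in limma, against 0% of all probe sets, so that count is not particular to these genes. There was 1 of 18 at an unadjusted p under 0.05 (3.89% of all), and in 1 of 18 the arrays separated (6.62% of all). Of the 18, 4 were higher and 14 lower in B6By.C.132.54, and the median was -0.06 against -0.01. These comparisons share arrays, so their differences are not independent of each other. The standard errors of the 18 were ordinary for the array, with a median of 0.109 against 0.110 over all probe sets.

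On chromosome 4, the 5 genes on either side of Alad in the order of the RefSeq annotation were examined: Prpf4, Rnf183, Wdr31, Bspry and Hdhd3 on one side, and Pole3, 4933430I17Rik, Rgs3, Zfp618 and Ambp on the other. By representative probe set (the brightest of a gene), 1 of 10 passed between BALB/cJ and C57BL/6ByJ, against 1.32% of all genes. It was Hdhd3, directly next to Alad, which encodes a protein with a haloacid dehalogenase-like hydrolase domain. Its single probe set, 1425343_at, read 5.31, 5.56 and 5.73 in BALB/cJ, against 5.07, 5.09 and 5.13 in B6By.C.132.54 and 5.04, 4.89 and 4.95 in C57BL/6ByJ. BALB/cJ was above all other arrays, and it rose by 0.57 over C57BL/6ByJ (95% interval 0.34 to 0.81), or 1.49-fold (limma, adjusted p = 0.0221).

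The Hdhd3 call is not a firm one. Leaving out C57BL/6ByJ replicate 1, 2 or 3 moved the adjusted p to 0.0575, 0.122 and 0.0962. It was also lost without BALB/cJ replicate 2 (0.109) or 3 (0.0873), and with only the 6 arrays of BALB/cJ and C57BL/6ByJ in the fit (0.0583). Against B6By.C.132.54 the difference was 0.44 (0.20 to 0.67; adjusted p = 0.106), which passed only without BALB/cJ replicate 1 (0.0278). B6By.C.132.54 minus C57BL/6ByJ gave 0.14 (-0.10 to 0.37; adjusted p = 0.915), although its arrays too lay just above those of C57BL/6ByJ.

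The other 9 neighbours differed by -0.08 to 0.15 between BALB/cJ and C57BL/6ByJ. The median over all 10 was 0.09 against 0.02 over all genes, and 5 of the 10 were dimmer than the array's median level. Pole3, a histone-fold subunit of DNA polymerase epsilon directly on the other side of Alad, differed by 0.10. Prpf4, a splicing factor, differed by 0.07 and Rgs3, a regulator of G protein signalling, by 0.07. Of the dim ones, Rnf183 differed by 0.13, Wdr31 by 0.15, Bspry by -0.08, 4933430I17Rik by 0.02 and Ambp by 0.07, and Zfp618 by 0.12 at a level above the median. Between BALB/cJ and B6By.C.132.54, 0 of 10 passed in limma, against 1.1% of all genes. With 3 or 10 genes on either side, Hdhd3 was again the one gene called between BALB/cJ and C57BL/6ByJ.

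**Figure D4:**
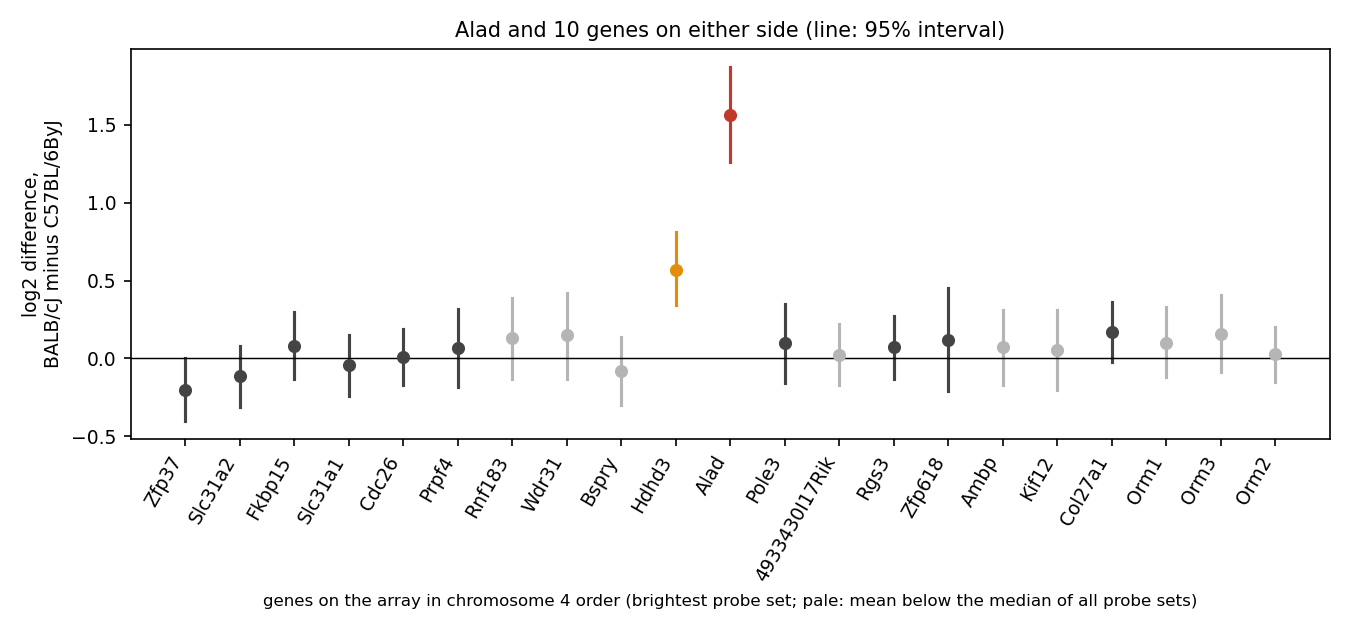
Log2 difference of BALB/cJ minus C57BL/6ByJ, with 95% intervals, for Alad and the 10 genes with a probe set on either side of it in chromosome 4 order (brightest probe set per gene; pale points have a mean below the median of all probe sets). Alad stands at 1.56 and Hdhd3 at 0.57, while the other genes drawn lie between -0.20 and 0.17.

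Genes around the pathway were taken as 7 lists with 65 measured genes. By representative probe set, 0 rose and 1 fell between BALB/cJ and C57BL/6ByJ, where 1.32% of all genes passed, and likewise between BALB/cJ and B6By.C.132.54, where 1.1% of all genes passed. A count of 1 of 65 is near that background. Between B6By.C.132.54 and C57BL/6ByJ, 0 passed, where 0% of all genes did. The gene that fell was Slc15a2 in both cases. Over all 131 probe sets of these genes, 1 rose and 4 fell between BALB/cJ and C57BL/6ByJ, against 1.43% of all probe sets, all of them in Slc15a2, Abcb10 and Nfs1.

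Slc15a2 encodes PEPT2, an oligopeptide transporter that also carries aminolevulinate, the substrate of Alad, and lies on chromosome 16. Its 3 probe sets passed in both comparisons with BALB/cJ but not in one direction. The representative, 1424730_a_at, read 5.52, 5.64 and 5.77 in BALB/cJ, against 6.36, 6.71 and 6.24 in B6By.C.132.54 and 6.50, 6.35 and 6.54 in C57BL/6ByJ. It fell by 0.82 on the log2 scale against C57BL/6ByJ (SE 0.126, adjusted p = 0.00623) and by 0.79 against B6By.C.132.54 (adjusted p = 0.00821).

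Slc15a2 1447808_s_at read 4.50, 4.64 and 4.44 in BALB/cJ, against 6.56, 6.85 and 6.99 in B6By.C.132.54 and 6.64, 6.67 and 6.67 in C57BL/6ByJ. It fell by 2.14 against C57BL/6ByJ (4.39-fold, adjusted p = 1.62e-06). The remaining one, 1417600_at, went the other way, with 6.71, 6.77 and 6.27 in BALB/cJ, 5.75, 5.93 and 5.23 in B6By.C.132.54 and 5.68, 5.85 and 5.34 in C57BL/6ByJ. It rose by 0.96 over C57BL/6ByJ (adjusted p = 0.0379), a call lost without any one of C57BL/6ByJ replicates 1, 2 and 3, BALB/cJ replicates 1 and 2 and B6By.C.132.54 replicate 1, at an adjusted p of up to 0.196. Against B6By.C.132.54 its adjusted p was 0.0445, and up to 0.229 with 1 array left out. With the replicate number as a block in the limma fit, the adjusted p of 1417600_at was 0.000102 against C57BL/6ByJ and 0.000125 against B6By.C.132.54. Its array pairs of one replicate number gave 1.03, 0.93 and 0.93 for BALB/cJ minus C57BL/6ByJ. With probe sets that disagree, the direction of the Slc15a2 transcript as a whole is not settled. In B6By.C.132.54 against C57BL/6ByJ, none of the 3 passed, with differences between -0.03 and 0.14.

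Abcb10, a transporter of the inner mitochondrial membrane needed for haem synthesis in red cell precursors, had 1 of 3 probe sets called lower in BALB/cJ. Its representative, 1416402_at, read 5.93, 6.01 and 6.16 in BALB/cJ, against 6.35, 6.29 and 6.34 in B6By.C.132.54 and 6.44, 6.43 and 6.39 in C57BL/6ByJ. The difference from C57BL/6ByJ was -0.39 (95% interval -0.58 to -0.21), which narrowly did not pass (adjusted p = 0.0511) and passed at 0.0462 with the replicate number as a block. A second probe set, 1416403_at, read 4.66, 4.65 and 4.78 in BALB/cJ, against 5.21, 5.79 and 5.14 in B6By.C.132.54 and 5.34, 5.57 and 5.81 in C57BL/6ByJ. It fell by 0.88 against C57BL/6ByJ (adjusted p = 0.0271), a call lost without C57BL/6ByJ replicate 2 or 3 or any BALB/cJ replicate, at an adjusted p of up to 0.134. The remaining one, 1454265_a_at, lay at the median of all probe sets and differed by 0.16.

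The lists as a whole stayed near the median of all genes, which was 0.02 between BALB/cJ and C57BL/6ByJ. The 20 measured genes of mitochondrial supply and of haem or porphyrin transport had a median of -0.01. Among them the glycine carrier Slc25a38 differed by -0.01, and the iron carriers Slc25a37 and Slc25a28 by -0.02 and -0.05. The 13 iron genes had a median of -0.01: the transferrin receptor Tfrc differed by -0.31 (adjusted p = 0.388), the ferritin heavy chain Fth1 by -0.06 and the iron importer Slc11a2 by -0.12. In the same list one of 3 probe sets of Nfs1, the cysteine desulfurase of iron-sulphur cluster assembly, fell. Nfs1 1442017_at read 3.37, 3.56 and 3.29 in BALB/cJ, against 4.08, 4.89 and 4.30 in B6By.C.132.54 and 4.52, 4.43 and 5.09 in C57BL/6ByJ, and fell by 1.27 against C57BL/6ByJ (adjusted p = 0.0114; 0.0536 without BALB/cJ replicate 1 and 0.0718 without replicate 3). All 3 BALB/cJ values of this probe set were under the array's median level. The brighter Nfs1 probe sets differed by 0.15 and -0.13 and did not pass.

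The 6 genes of haem breakdown and plasma haem binding had a median of -0.01, with the largest difference in Blvrb. Biliverdin reductase Blvra read 6.16, 6.15 and 6.22 in BALB/cJ, against 6.41, 6.49 and 6.45 in B6By.C.132.54 and 6.46, 6.54 and 6.50 in C57BL/6ByJ. Its difference from C57BL/6ByJ was -0.32 (adjusted p = 0.0824), with BALB/cJ below all other arrays. The related reductase Blvrb read 5.58, 6.06 and 6.05 in BALB/cJ, against 5.32, 5.80 and 5.35 in B6By.C.132.54 and 5.05, 5.58 and 5.36 in C57BL/6ByJ. Its difference of 0.57 did not pass (adjusted p = 0.303) without the replicate number as a block and did with it (adjusted p = 0.0153), where 1.99% of all genes passed. The haem scavenger haemopexin (Hpx) had a mean under the array's median level and differed by 0.02.

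The 9 regulators of haem enzymes had the highest median of the lists with more than 1 gene, 0.10, and 0 of 9 passed: the haem-sensing repressor Bach1 differed by 0.09, the stress factor Nfe2l2 by -0.07 and its inhibitor Keap1 by -0.01. The 8 genes of aminolevulinate and its amino acid precursors had a median of -0.015, with the succinyl-CoA ligase subunits Sucla2, Suclg1 and Suclg2 at -0.03, 0.004 and 0.12. The 8 globins and other haem proteins had a median of 0.01. The globins with a probe set of their own were near or below the median level: Hba-a1 differed by -0.002, Hba-a2 by 0.03 and Hbb-b2 by 0.14. Against B6By.C.132.54, the iron exporter ferroportin (Slc40a1) read 5.68, 5.63 and 5.64 in BALB/cJ and 5.20, 5.35 and 5.06 in B6By.C.132.54, a difference of 0.44 that narrowly did not pass (adjusted p = 0.0515). Its second probe set, 1448566_at, differed by 0.11 between the same strains (adjusted p = 0.893).

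**Figure D5:**
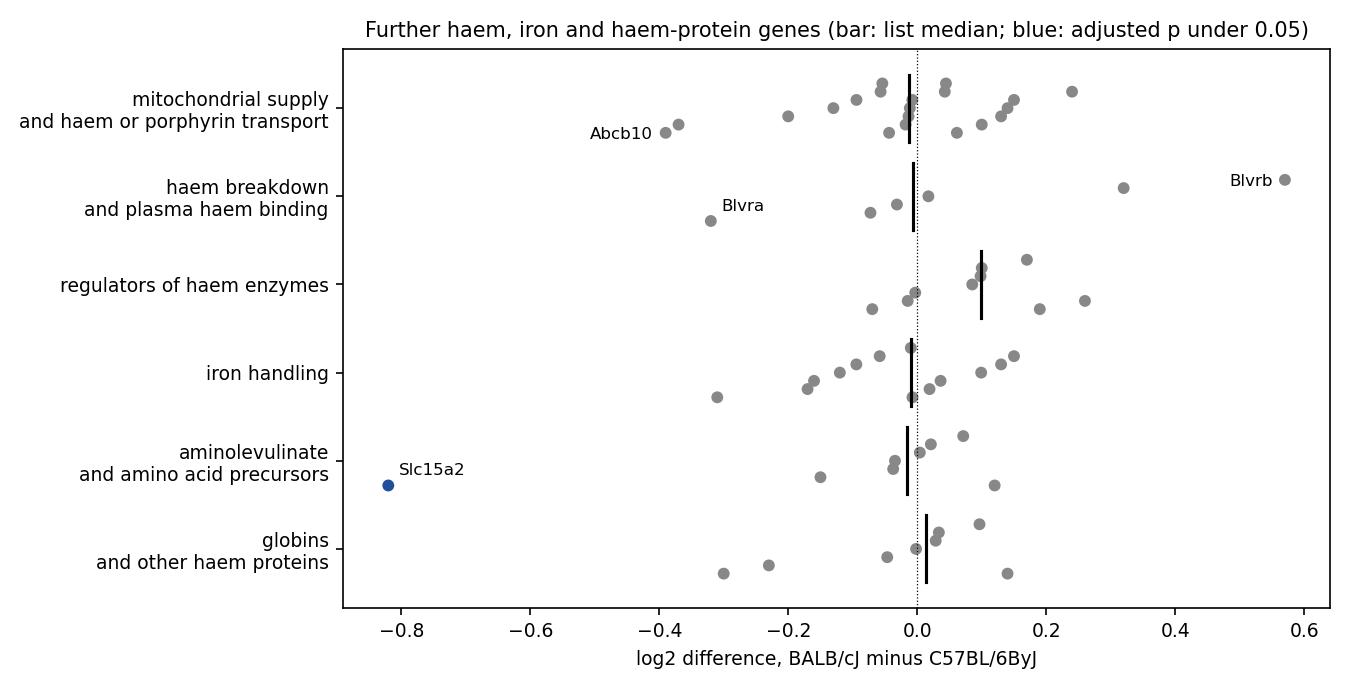
Log2 difference of BALB/cJ minus C57BL/6ByJ for the representative probe set of each gene in 6 lists around the haem pathway; black bars are list medians, and blue marks an adjusted p under 0.05. List medians lie between -0.02 and 0.10, and the one blue point is Slc15a2 at -0.82.

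The genes whose levels followed the brighter Alad probe set most closely over the 9 arrays lay outside haem metabolism. Among 2471 candidates (brightest probe set per gene, at or above the median level, SD of at least 0.2) the highest Pearson correlations were those of Clasp1 (0.987, microtubule plus-end protein, chromosome 1), Supt16 (0.986, histone chaperone subunit, chromosome 14), Dctn4 (0.984, dynactin subunit, chromosome 18), Cap1 (0.981, actin-binding protein, chromosome 4) and Hectd3 (0.980, ubiquitin ligase, chromosome 4). All 5 were higher in BALB/cJ than in both other strains, which is what the measure selects, and all arrays share the strain grouping. Within the pathway the correlation with Alad was 0.663 for Alas1, 0.384 for Fech, 0.324 for Hmox2, 0.124 for Cpox, 0.114 for Urod, -0.053 for Hmox1, -0.173 for Uros and -0.645 for Ppox. These are descriptions over 9 arrays in 3 strain groups and carry no p.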

How the data were processed

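The authors deposited a table of linear signal intensity values for 9 arrays, and per the submitters' processing notes GCOS and RMA were used. Background treatment, normalization scale and genome build are not given in the sources used here. Intensities were taken to log2, 64 of 45101 probe sets (controls) were left out, and strain means were modelled jointly over the 9 arrays by limma 3.58.1 in R 4.3.3 (lmFit, eBayes, two-sided, Benjamini-Hochberg over 45037 probe sets, threshold 0.05). The model was also run on simulated data with independent noise on each array. Replicate numbers were not simulated, so that run cannot speak to deviations shared by arrays of one number. The platform annotation gave 34945 probe sets 1 gene, 932 several and 9160 none; only the first kind is named. Symbols were updated through RefSeq GRCm38.p6 for 34741. Globin and other probe sets with several genes were not used.

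The genes and lists were chosen with earlier results of these data known. The text names all probe sets of the 9 genes, list genes that passed by their brightest probe set, the first 3 genes of each list, the neighbours of Alad and the 5 genes most like it. Abcb10, Nfs1 and Slc40a1, and the markers Slc17a7 and Gfap, are named outside this rule and were chosen after their values were seen. Labels do not say whether replicates are separate batches, and p-values measure the spread between pools. The design text puts every strain in each of 3 batches. Arrays of one replicate number had positive correlations in all 9 pairs (0.148 to 0.670, against -0.580 to 0.273 in 18 other pairs), but these ranges overlap. Pairs of number 1 gave 0.636 to 0.670 and those of number 3 gave 0.311 to 0.371, all above the highest pair of unlike number. Those of number 2 gave 0.148 to 0.265, no higher than some pairs of unlike number. The values thus set numbers 1 and 3 apart from the pairs of unlike number, and do not do so for number 2. The fit with the number as a block is given at least where it changes a call. The alternatives were this block, quantile normalization, median centring, dim probe sets left out, a pseudocount of 16, an intensity trend with a robust prior, only the 6 arrays of a comparison, each array left out, and the mean over a gene's probe sets.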

Additional observations from a re-analysis of the deposited data

How the results depend on the processing

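The 18 probe sets of the genes other than Alad gave 0 calls in each of the 3 comparisons under all 16 alternatives. In B6By.C.132.54 minus C57BL/6ByJ, 0 of all probe sets were called under them as well. The sign of an uncalled difference changed in 27, 20 and 21 of 289 recomputed values (BALB/cJ minus C57BL/6ByJ, B6By.C.132.54 minus C57BL/6ByJ, BALB/cJ minus B6By.C.132.54). The Alad difference was 0.981 and 0.983 as the mean over both probe sets, for BALB/cJ minus C57BL/6ByJ and BALB/cJ minus B6By.C.132.54; with 1 array left out the brighter probe set gave 1.47 to 1.69 and 1.42 to 1.61. The dimmer one gave 0.251 and 0.288 with a pseudocount of 16, which compresses low values. The count over all probe sets was 644 for BALB/cJ against C57BL/6ByJ, and 410 to 706 with 1 array left out (410 without C57BL/6ByJ replicate 2).

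Among the neighbours of Alad, BALB/cJ minus C57BL/6ByJ gave 0 calls in place of 1 with only the 6 arrays of these strains, and 0 to 1 with 1 array left out; BALB/cJ minus B6By.C.132.54 gave 0 to 1. The transport list gave 1 call (Abcb10) between BALB/cJ and C57BL/6ByJ in place of 0 with the replicate block, median centring, dim probe sets left out or a pseudocount of 16, and 0 to 1 with 1 array left out. The breakdown list gave 1 call with the replicate block (Blvrb) or a pseudocount of 16 (Blvra), and 1 in BALB/cJ minus B6By.C.132.54 with a pseudocount of 16. The iron list gave 1 call (Slc40a1) between BALB/cJ and B6By.C.132.54 with quantile normalization, dim probe sets left out or a pseudocount of 16, and 0 to 1 with 1 array left out. The cause of these moves was not tested. With the replicate block, 953 and 834 probe sets passed between BALB/cJ and C57BL/6ByJ and between BALB/cJ and B6By.C.132.54, against 644 and 575 without it; the block changed no other call among the named results than those of Abcb10 and Blvrb. With 3 pools per strain, small differences in dim probe sets, such as those of Cpox, cannot be resolved.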
